A study of Homo sapiens with 6 samples.

Results

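The genes described here encode the matrix metalloproteinases (MMPs), the ADAM and ADAMTS proteinases and the tissue inhibitors of metalloproteinases (TIMPs). They were chosen by symbol alone, as MMP, ADAM or ADAMTS followed by a number, or TIMP1 to TIMP4. Of 33496 genes in the expression tables, 56 met this rule, comprising 19 MMP, 15 ADAM, 18 ADAMTS and 4 TIMP genes. RNA was sequenced from ARPE-19 cells, an established human retinal pigment epithelium (RPE) line, labelled wild type. Erastin, which blocks cystine uptake and thereby causes ferroptosis, a death by iron-dependent lipid peroxidation, was given to all cells at 5 µM for 24 h, so every library carried it. The 3 Era libraries received erastin alone, and the 3 Era+VK libraries were from cells that had also been given vitamin K1 (VK1) at 10 µM from 1 h before erastin, as the study's methods describe its treatments. The comparison asked how VK1 altered transcript levels under erastin. Libraries of untreated cells were not analysed here, so an effect of erastin itself cannot be read from these values. The labels do not say that the 3 libraries of a group came from separate cultures, and p-values then measure only the spread between these samples, which may be technical.

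MMPs are zinc-dependent endopeptidases that are made as inactive proenzymes and together cleave most components of the extracellular matrix. ADAMs are membrane-anchored relatives that release the outer parts of other surface proteins, whereas ADAMTS enzymes are secreted and process collagens and proteoglycans. TIMPs bind the active site of these enzymes. In the eye the RPE lies on Bruch's membrane, a matrix sheet that new vessels cross in choroidal neovascularization, and TIMP3 is a component of that sheet.

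Levels are given as FPKM (fragments scaled to transcript length and to the number of mapped fragments), which corrects for transcript length and so allows levels of different genes to be compared. The libraries listed between 11924 and 12027 genes at 1 FPKM or more. Within the Era group log2(FPKM + 1) values of the tested genes correlated at 0.992 to 0.993, and within the Era+VK group at 0.984 to 0.99. The defining markers of the labelled cell type were present in part. OTX2 was at 27.5 to 31.35 FPKM while RPE65 was at most 0.02 FPKM. In all, 11 of 13 RPE markers were in the tables, 6 of them at a mean of 1 FPKM or more. BEST1, 1 of these 6, varied widely within groups, at 2.65, 0.65 and 56.98 FPKM in Era and 36.45, 0.6 and 4.8 FPKM in Era+VK. Era+VK replicates 2 and 3 stood apart in the 12 red cell transcripts, whose summed level was 239.54 and 232.13 FPKM there against 0.08 to 0.21 FPKM in the other 4 libraries. The part of these transcripts in the results below was not tested. Values without those 2 libraries are therefore given beside the results with the smallest p. Of 5 leukocyte markers 4 were in the tables, with a summed level of 43.35 to 50.86 FPKM in Era and 34.6 to 38.44 FPKM in Era+VK. Almost all of this was CD68, a lysosomal protein that other cells also make, at 43.27 to 50.72 FPKM in Era and 34.52 to 38.38 FPKM in Era+VK, while the defining pan-leukocyte gene PTPRC was at most 0.14 FPKM. The 6 fibroblast markers summed to 25.94 to 29.93 FPKM in Era and 32.93 to 41.73 FPKM in Era+VK, nearly all of it PDGFRB, with DCN and LUM listed at 0 in every library. The part of these shifts in the results was not tested.

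Of the 56 genes, 25 averaged 1 FPKM or more across all 6 libraries and were tested. These were 7 of 19 MMP, 6 of 15 ADAM, 8 of 18 ADAMTS and all 4 TIMP genes. ADAMTS14 lay just inside this minimum at a mean of 1.01 FPKM, and ADAM22 just outside it at 0.928 FPKM. None of the 25 passed an adjusted p of 0.05 in limma, a linear model fitted over all 11981 genes of at least 1 FPKM, which called 0.618% of them (74 genes, with 16 or 0.134% higher and 58 or 0.484% lower in Era+VK). At an unadjusted p under 0.05 limma gave 5 of the 25, against 15.8% of all genes tested. The 3 higher ones, MMP11, ADAMTS2 and ADAMTS14, stand beside 10.4% of all genes, and the 2 lower ones, ADAMTS1 and TIMP4, beside 5.42%. ADAMTS14 and TIMP4, counted here and in the next comparison, passed the 1 FPKM minimum only through the mean of their higher group. Group means, Era first, were 0.8 and 1.21 FPKM for ADAMTS14 and 1.7 and 0.807 FPKM for TIMP4. Their part in both counts is therefore no support for a difference. Neither gene was tested with a minimum of 1 FPKM in every library. That minimum left 23 of the genes, and MMP11, ADAMTS1 and ADAMTS2 were those with an unadjusted p under 0.05 in limma. The share of all genes at that minimum was not computed. The groups did not overlap for 9 of the 25 (36.0%) against 22.1% of all genes tested. All values of Era+VK were above all values of Era for ADAM9, ADAM17, MMP11, ADAMTS2 and ADAMTS14 (5 genes, against 15.1% of all), and below them for MMP24, ADAMTS1, ADAMTS9 and TIMP4 (4 genes, against 7.04%). The fitted difference was positive for 12 and negative for 13 of the 25, while 63.3% of all genes tested were positive. The median difference on the log2(FPKM + 1) scale was -0.0018 for the 25 and 0.0326 for all genes tested, and the median absolute difference was 0.0761 and 0.0709. This scale, used for every fold change here, understates the change of genes with low levels. In these bulk samples fewer cells expressing a gene and less of its RNA per cell cannot be told apart.

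**Figure D1:**
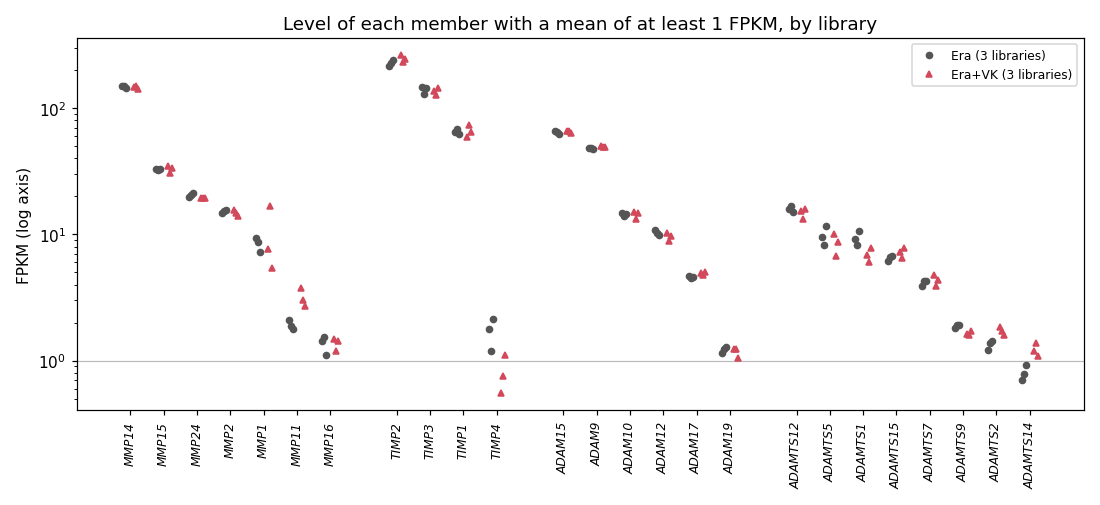
Level of the 25 tested genes in each library (FPKM, log axis), one column per gene, with Era and Era+VK libraries marked separately. TIMP2, MMP14 and TIMP3 hold the highest levels, and the points of both groups lie close together for most genes.

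TIMPs were the most abundant of the 4 families. Their summed level was 427.48 to 449.46 FPKM in Era and 432.39 to 458.82 FPKM in Era+VK, above the summed MMP level of 226.21 to 231.95 and 217.71 to 235.5 FPKM. The ratio of summed MMP to summed TIMP level was 0.503 to 0.543 in Era and 0.479 to 0.545 in Era+VK, so the ranges overlapped. TIMP2, which inhibits MMPs and also takes part in the activation of pro-MMP2 at the cell surface, was the highest gene of all 56. It was at 216.54, 228.16 and 241.75 FPKM in Era and at 263.78, 230.67 and 244.73 FPKM in Era+VK (229 ± 12.6 against 246 ± 16.6, mean ± SD, n = 3 each). The groups overlapped, and the log2 difference was 0.11 with a 95% interval of -0.05 to 0.26 (adjusted p = 0.469 in limma). TIMP3, the matrix-bound inhibitor, was at 146.99, 130.16 and 143.19 FPKM in Era and at 136.04, 127.62 and 144.15 FPKM in Era+VK. Its groups overlapped as well, with a log2 difference of -0.04 (interval -0.19 to 0.11). TIMP1, a secreted inhibitor, was at 64.58, 67.98 and 62.39 FPKM in Era and at 58.45, 73.34 and 64.41 FPKM in Era+VK, the Era+VK values spanning those of Era. Its log2 difference was 0.004, with an interval of -0.18 to 0.19.

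TIMP4, the fourth inhibitor, was low and was lower in every Era+VK library than in any Era library. Its values were 1.78, 1.18 and 2.13 FPKM in Era and 0.55, 0.76 and 1.11 FPKM in Era+VK, a ratio of means of 0.475. The groups are separated by only a small gap, between 1.18 and 1.11 FPKM. The log2 difference was -0.57 ± 0.16 (SE), with an interval of -0.94 to -0.21, an unadjusted p of 0.00709 and an adjusted p of 0.16 in limma. With Era+VK replicate 1 as the only treated library it was -0.78 (adjusted p = 0.194 in limma). An exact permutation test of the 6 libraries gave p = 0.1, the smallest that 3 against 3 allows, here and for each other gene whose groups did not overlap. TIMP4 lies at chr3:12153051-12159351 (GRCh38, minus strand) inside SYN2 on the opposite strand, and SYN2 was listed at a mean of 0.0167 FPKM.

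Among MMPs, the membrane-type enzymes held most of the transcript. MMP14, which cleaves collagen at the cell surface and activates pro-MMP2, accounted for 63.1 to 65.0% of the summed MMP level in every library. It was at 148.17, 150.69 and 145.3 FPKM in Era and at 146.38, 148.52 and 140.27 FPKM in Era+VK (148 ± 2.7 against 145 ± 4.28, n = 3 each). The values of both groups were intermixed, and the highest was 1.07 times the lowest. The log2 difference was -0.03 with an interval of -0.13 to 0.07 (adjusted p = 0.784 in limma). MMP15, another membrane-type enzyme, was at 33.14, 32.4 and 32.93 FPKM in Era and at 34.72, 30.39 and 33.38 FPKM in Era+VK, with a log2 difference of -0.002 (interval -0.13 to 0.12). MMP24, also membrane-anchored, was at 19.74, 20.4 and 21.27 FPKM in Era and at 19.3, 19.34 and 19.51 FPKM in Era+VK. These groups did not overlap, yet the means differed by a ratio of only 0.947 and the adjusted p was 0.448 in limma. Exons of MMP24 overlap MMP24OS, a protein-coding gene on the opposite strand, listed at 8.81 FPKM. Since strandedness of the libraries is not stated, reads of both cannot be told apart. MMP2, the gelatinase that cleaves denatured collagen and basement membrane collagen, was at 14.7 to 15.1 FPKM as group means (log2 difference -0.04, interval -0.16 to 0.08).

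MMP1, the interstitial collagenase, varied most among the MMPs tested, and the direction of its difference turned when either of 2 libraries was left out. It was at 9.34, 8.66 and 7.19 FPKM in Era and at 7.62, 16.79 and 5.37 FPKM in Era+VK. The groups overlapped, since Era+VK held both the highest and the lowest value. The log2 difference was 0.09 ± 0.33 (SE), with an interval of -0.68 to 0.85, and became -0.34 without Era+VK replicate 2 and -0.01 without Era replicate 3. MMP3, a stromelysin encoded beside MMP1 on chromosome 11, was highest in the same library, at 0.36 FPKM against at most 0.05 FPKM elsewhere. PLAU, the urokinase that activates plasminogen, was also highest there, at 3.12 FPKM against 1.46 to 2.19 FPKM in the others; it was named after its values were seen. Era+VK replicate 2 is one of the libraries with red cell transcripts. In the other, Era+VK replicate 3, MMP1 was at 5.37, MMP3 at 0 and PLAU at 1.46 FPKM. The part of those transcripts in these values was not tested.

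MMP11, a stromelysin-type enzyme that is activated inside the cell by furin, had the smallest p of the 25 genes. It was at 2.1, 1.88 and 1.79 FPKM in Era and at 3.77, 3 and 2.69 FPKM in Era+VK (1.92 ± 0.159 against 3.15 ± 0.556, n = 3 each). Every Era+VK library was above every Era library, and the ratio of means was 1.64. The log2 difference was 0.50 ± 0.10 (SE), with an interval of 0.27 to 0.73, an unadjusted p of 0.00117 and an adjusted p of 0.0826 in limma. Over all the alternative settings the adjusted p in limma ran from 0.0529 to 0.258 and the difference from 0.40 to 0.71, the largest value being that with Era+VK replicate 1 as the only treated library. MMP11 lies at chr22:23768226-23784316 (GRCh38, plus strand). Its exons overlap CHCHD10, a protein-coding gene on the opposite strand, listed at 0.893 FPKM, and reads of the overlap cannot be told apart. The remaining MMP tested, membrane-type MMP16, had a mean of 1.36 FPKM and a log2 difference of 0.01.

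**Figure D2:**
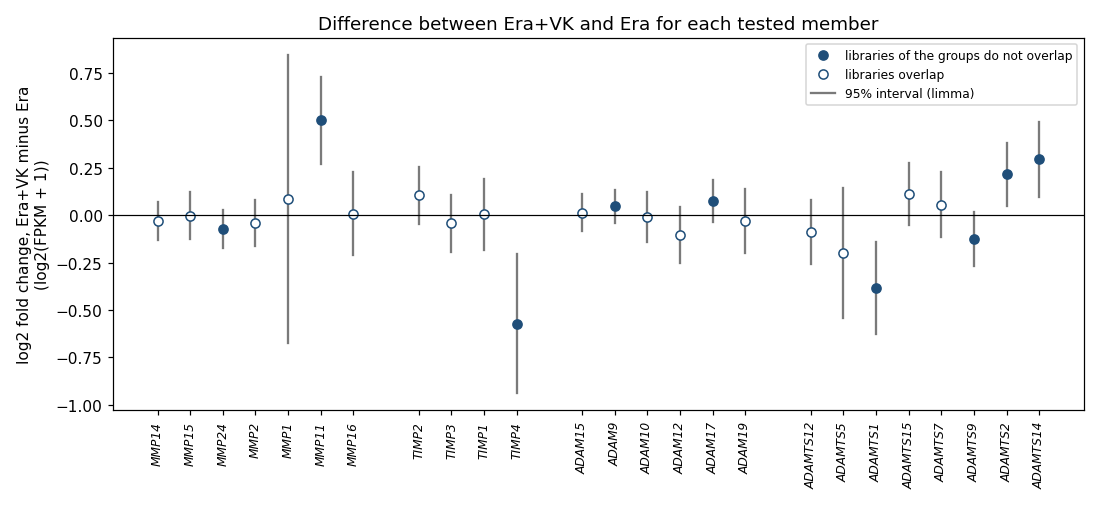
Difference between Era+VK and Era for the 25 tested genes on the log2(FPKM + 1) scale, with 95% intervals from limma (n = 3 libraries per group). The intervals of MMP11, ADAMTS14 and ADAMTS2 lie above 0 and those of ADAMTS1 and TIMP4 below 0 before adjustment over all genes, and MMP1 has the widest interval. ADAMTS14 and TIMP4 passed the FPKM minimum only through the mean of their higher group.

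All 6 ADAMs tested belong to the members that, by textbook knowledge, carry the catalytic zinc-binding motif, and they held nearly all ADAM transcript. ADAM15, a sheddase that also binds integrins, was at 65.43, 64.69 and 61.71 FPKM in Era and at 65.21, 65.34 and 63.01 FPKM in Era+VK. Its groups overlapped, with a log2 difference of 0.01 (interval -0.09 to 0.11). ADAM9, another sheddase of the cell surface, was at 47.85, 48.31 and 47.13 FPKM in Era and at 49.95, 48.77 and 49.31 FPKM in Era+VK. The groups did not overlap, but the log2 difference was 0.05 with an interval of -0.04 to 0.13 (adjusted p = 0.589 in limma). ADAM10, which cleaves NOTCH receptors and cadherins, was at 14.68, 13.87 and 14.55 FPKM in Era and at 14.88, 13.18 and 14.79 FPKM in Era+VK, and the groups overlapped (log2 difference -0.01, interval -0.14 to 0.12). ADAM17, the TNF-alpha converting enzyme, was at 4.69, 4.49 and 4.59 FPKM in Era and at 4.95, 4.74 and 4.99 FPKM in Era+VK. The lowest Era+VK value lay just above the highest Era value, and the log2 difference was 0.08 (interval -0.03 to 0.19, adjusted p = 0.475 in limma). Exons of ADAM17 overlap IAH1, a protein-coding gene on the opposite strand, listed at 4.31 FPKM. ADAM12 and ADAM19, proteinases of the meltrin group, had means of 9.96 and 1.2 FPKM and log2 differences of -0.11 and -0.03. Exons of ADAM19 overlap CYFIP2, a protein-coding gene on the opposite strand, at 15.5 FPKM. For ADAM17 and ADAM19 too, reads of the overlap cannot be told apart.

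Of the 8 ADAMTS genes tested, the groups did not overlap for 4, against 22.1% of all genes tested. They went both ways, with ADAMTS2 and ADAMTS14 higher (15.1% of all genes were) and ADAMTS1 and ADAMTS9 lower (7.04% of all). ADAMTS14 passed the FPKM minimum only through the mean of its higher group. ADAMTS2 and ADAMTS14 cut the N-terminal propeptide from fibrillar procollagens, and ADAMTS6 is a secreted member of the same family whose mean lay under the FPKM minimum. Their upstream sequences are shown because ADAMTS2 and ADAMTS14 were higher, and ADAMTS6 lower, in every Era+VK library. Each is the 250 bases before the annotated start in the RefSeq promoter table (GRCh38.p14), read 5′ to 3′ on the gene's strand, with capitals marking the GC box GGGCGG or its reverse complement CCGCCC.
ADAMTS2, chr5:179345462-179345711, minus strand: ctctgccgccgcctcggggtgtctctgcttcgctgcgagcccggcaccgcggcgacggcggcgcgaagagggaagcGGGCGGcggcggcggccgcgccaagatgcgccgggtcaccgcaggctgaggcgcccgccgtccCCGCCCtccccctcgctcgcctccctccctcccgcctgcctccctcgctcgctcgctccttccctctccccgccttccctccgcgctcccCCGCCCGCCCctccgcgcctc
ADAMTS14, chr10:70672256-70672505, plus strand: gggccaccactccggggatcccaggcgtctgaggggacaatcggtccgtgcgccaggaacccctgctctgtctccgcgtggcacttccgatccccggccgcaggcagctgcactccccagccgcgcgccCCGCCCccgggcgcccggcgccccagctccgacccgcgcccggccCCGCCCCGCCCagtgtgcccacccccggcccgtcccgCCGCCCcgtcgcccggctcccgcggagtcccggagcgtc
ADAMTS6, chr5:65481921-65482170, minus strand: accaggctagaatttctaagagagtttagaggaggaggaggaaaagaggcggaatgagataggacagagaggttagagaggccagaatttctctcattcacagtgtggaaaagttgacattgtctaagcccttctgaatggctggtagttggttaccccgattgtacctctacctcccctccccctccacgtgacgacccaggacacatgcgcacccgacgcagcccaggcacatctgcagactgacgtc
The ADAMTS2 and ADAMTS14 windows hold 4 GC boxes each, some of them overlapping, and 80.0 and 80.4% G and C, and the ADAMTS6 window holds none and 52.4%. The windows of TIMP4 and MMP24, both lower in every Era+VK library, also hold a GC box. Of the 33 genes of the 56 with an entry in the table, 24 (72.7%) hold a GC box in this window, against 42.6% of 35116 windows in all. Among the 16 tested genes with an entry, 15 hold one, so a GC box does not separate higher from lower genes here. The AP-1 motif TGAGTCA was found in MMP7 alone and in 4.2% of all windows, and the cyclic AMP response element TGACGTCA and the C/EBP-ATF element TTGCATCA in none of the 33, against 1.65% and 0.772% of all windows. Both strands were searched. A match describes letters and not a bound site.

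ADAMTS2 was at 1.22, 1.37 and 1.44 FPKM in Era and at 1.84, 1.73 and 1.59 FPKM in Era+VK, a ratio of means of 1.28. Its log2 difference was 0.22 ± 0.07 (SE), with an interval of 0.05 to 0.38 and an adjusted p of 0.217 in limma. ADAMTS14 was at 0.7, 0.78 and 0.92 FPKM in Era and at 1.18, 1.37 and 1.08 FPKM in Era+VK, a ratio of means of 1.51. The log2 difference of ADAMTS14 was 0.30 ± 0.09 (SE), with an interval of 0.10 to 0.49 and an adjusted p of 0.173 in limma. Neither gene's groups overlapped. The summed level of the procollagen N-proteinases ADAMTS2, ADAMTS3 and ADAMTS14 was 2.59 to 2.78 FPKM in Era and 3.37 to 3.86 FPKM in Era+VK. Most of this sum is ADAMTS2 and ADAMTS14, so it restates their values and is no separate result. ADAMTS3 was at 0.67, 0.49 and 0.42 FPKM in Era and 0.84, 0.61 and 0.7 FPKM in Era+VK, and its own groups overlapped.

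ADAMTS1, a proteoglycan-cleaving enzyme that also carries antiangiogenic thrombospondin repeats, was lower in every Era+VK library. It was at 9.21, 8.16 and 10.59 FPKM in Era and at 6.9, 6.03 and 7.76 FPKM in Era+VK (9.32 ± 1.22 against 6.9 ± 0.865, n = 3 each), a ratio of means of 0.74. The log2 difference was -0.39 ± 0.11 (SE), with an interval of -0.63 to -0.14, an unadjusted p of 0.00678 and an adjusted p of 0.158 in limma. With Era+VK replicate 1 as the only treated library it was -0.38. Over the alternative settings the adjusted p in limma ran from 0.0534 to 0.385. ADAMTS5, the aggrecanase that neighbours ADAMTS1 on chromosome 21, was at 9.51, 8.29 and 11.56 FPKM in Era and at 10.02, 6.69 and 8.61 FPKM in Era+VK. Its groups overlapped, and its log2 difference was -0.20 with an interval of -0.54 to 0.15. In both genes replicate 2 was the lowest library of its group. ADAMTS9, a further proteoglycanase, was at 1.8, 1.93 and 1.92 FPKM in Era and at 1.63, 1.59 and 1.71 FPKM in Era+VK, without overlap (log2 difference -0.13, interval -0.27 to 0.01, adjusted p = 0.364 in limma). ADAMTS12, the highest ADAMTS gene and a protease of cartilage oligomeric matrix protein, was at 15.83, 16.72 and 14.98 FPKM in Era and at 15.27, 13.29 and 15.97 FPKM in Era+VK, and the groups overlapped (log2 difference -0.09). ADAMTS15 and ADAMTS7 had means of 6.84 and 4.23 FPKM and log2 differences of 0.11 and 0.06.

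**Figure D3:**
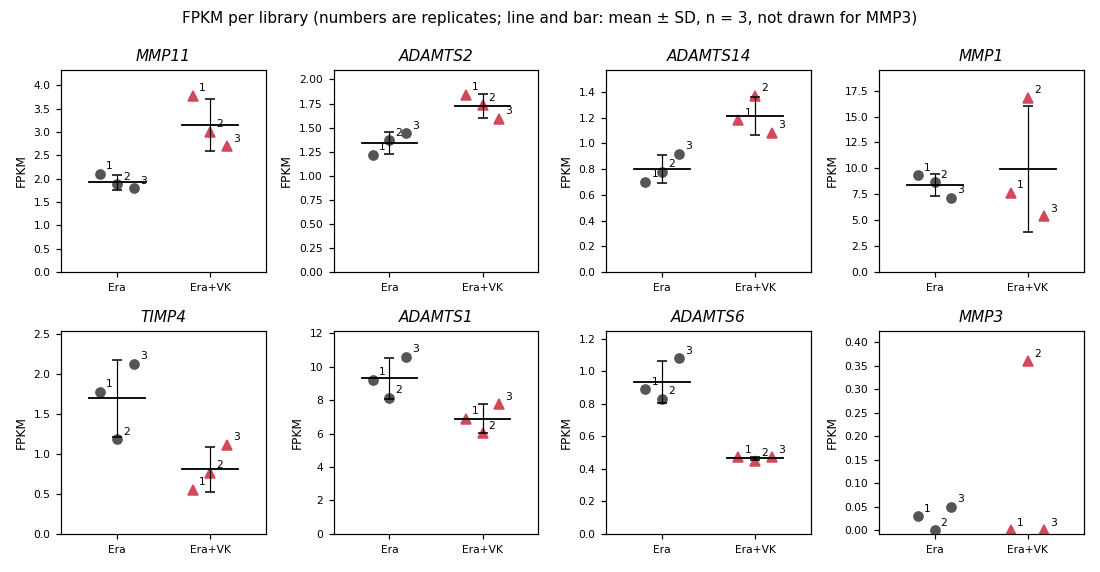
FPKM in each library for 8 genes, with numbers giving the replicate and lines and bars the mean ± SD (n = 3, not drawn for MMP3, which was listed at 0 in some libraries). The groups of MMP11, ADAMTS2, ADAMTS14, TIMP4, ADAMTS1 and ADAMTS6 do not overlap, while MMP1 and MMP3 are highest in Era+VK replicate 2.

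The other 31 genes had a mean under 1 FPKM. Of these, 18 were under 0.1 FPKM, and ADAMTS4, ADAM28 and MMP12 were listed at 0 in every library. The 5 highest were ADAM22, ADAMTS13, ADAM23, ADAMTS6 and ADAMTS3. Groups did not overlap for 5 of the 28 genes above 0, against 6.45% of the 19345 genes in this range, with 2 higher (3.42% of all) and 3 lower (3.03%). ADAMTS6 stood at 0.89, 0.83 and 1.08 FPKM in Era and at 0.47, 0.45 and 0.47 FPKM in Era+VK, and its log2 difference in a fit without the FPKM minimum was -0.40 ± 0.08 (SE; adjusted p = 0.239 in limma). That fit called 0.00319% of 31325 genes, and 8.8% had an unadjusted p under 0.05. Of the 28 genes, those under this p were ADAMTS6, ADAM29, ADAM8 and ADAM22. ADAM8 was at 0.03, 0.08 and 0.11 FPKM in Era and at 0.11, 0.26 and 0.3 FPKM in Era+VK, so its groups met at 0.11 FPKM. ADAM22, a synaptic adhesion protein that lacks the catalytic motif, stood at 0.89, 0.78 and 0.72 FPKM in Era and at 1.04, 1.06 and 1.08 FPKM in Era+VK. ADAM11, also without that motif, was at 0.43, 0.43 and 0.36 FPKM in Era and at 0.55, 0.5 and 0.57 FPKM in Era+VK. Both genes were higher in every Era+VK library. ADAM29 was at 0.1, 0.16 and 0.1 FPKM in Era and at 0.01, 0.06 and 0.02 FPKM in Era+VK. ADAMTS17 was at 0.06, 0.09 and 0.07 FPKM in Era and at 0.04, 0.05 and 0.04 FPKM in Era+VK. These last genes were lower in every Era+VK library, at levels close to 0. The summed level of the 5 ADAMs without the motif was 2.16 to 2.26 FPKM in Era and 2.59 to 2.72 FPKM in Era+VK. Most of this sum is ADAM22, ADAM23 and ADAM11, and it is no result apart from theirs. MMP9, the gelatinase produced by many leukocytes, was listed at 0.7 FPKM in Era replicate 1 and at no more than 0.02 FPKM elsewhere.

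**Figure D4:**
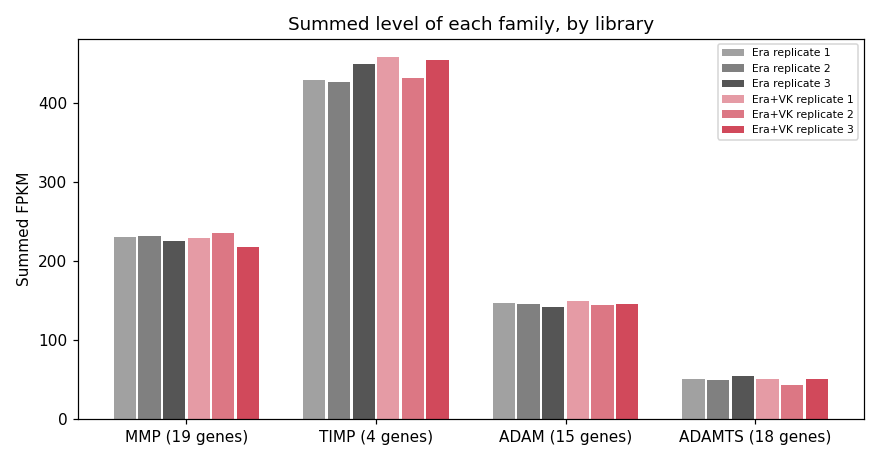
Summed FPKM of each family in each library, by group. TIMP sums (427.48 to 458.82 FPKM) exceed MMP sums (217.71 to 235.5 FPKM) in every library, and the ranges of Era and Era+VK overlap in each family.

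Genes that act with these enzymes were taken from 7 lists of activators, other inhibitors, trafficking proteins, substrates, inducers, shed ligands and ADAMTS-like proteins. Of 91 genes listed, 86 were in the tables and 55 were tested, and none passed in limma. At an unadjusted p under 0.05 there were 13 (against 15.8% of all genes tested), of which 5 were higher (10.4% of all) and 8 lower (5.42% of all), and the median log2 difference of the 55 was -0.02. The groups did not overlap for 18 of the 55, against 22.1% of all genes tested. Among activators FURIN, which cleaves the propeptides of membrane-type MMPs and ADAMs, had group means of 31.4 and 34.1 FPKM in Era and Era+VK, a log2 difference of 0.12 (adjusted p = 0.419 in limma). PLAUR, the urokinase receptor, was lower in every Era+VK library, with means of 5.69 and 4.43 FPKM and a log2 difference of -0.30 (adjusted p = 0.139 in limma). BSG, known as basigin and an inducer of MMPs, was at 312.81 to 325.15 FPKM in Era and 294.45 to 314.4 FPKM in Era+VK, overlapping (log2 difference -0.08, adjusted p = 0.434 in limma). Among substrates, SPARC was at means of 227 and 228 FPKM, whereas THBS1, an antiangiogenic matrix protein, was lower in every Era+VK library at 54.4 against 61.9 FPKM (log2 difference -0.18, adjusted p = 0.139 in limma). APP, the amyloid precursor shed by ADAM10, was higher in every Era+VK library, at 311.43 to 331.54 against 289.34 to 310.46 FPKM (log2 difference 0.08, adjusted p = 0.509 in limma).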

How the data were processed

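The authors deposited 1 table per library with an FPKM value for each gene, from 3 Era and 3 Era+VK libraries of ARPE-19 cells. The submitters' processing notes name cutadapt, HISAT2 and StringTie 2.1.6 and the mouse build mm10, while the tables carry human Ensembl identifiers. Because FPKM is not a count, read depth is unknown, no counting interval was computed, and low values held no step of 1 read from which reads could be recovered. The cell line tag counts upward from sample to sample, whereas every title says ARPE-19, and groups follow the titles and treatment tags.

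Genes averaging 1 FPKM or more entered the test on log2(FPKM + 1) with limma 3.58.1 in R 4.3.3 (empirical Bayes moderated, 2 groups, Benjamini-Hochberg adjustment over all 11981 genes, threshold 0.05). The scripts were tested on simulated data. Exact permutation tests were two-sided. Members and partner lists were chosen with earlier results of these data known. Values per library are given for genes past an unadjusted p of 0.05 or without overlap between groups and for the 3 highest of each family. Positions are those of GENCODE 29 (GRCh38), matched by Ensembl identifier for 56 of 56 genes. Alternatives were a pseudocount of 0.1, other filters on low values, quantile normalization, rescaling without mitochondrially encoded genes, a replicate block and leaving out libraries.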

Additional observations from a re-analysis of the deposited data

How the results depend on the processing

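None of the 25 genes and none of the partner genes passed in limma under any alternative, and 13 of the 25 kept their direction under all of those that tested them. ADAMTS14 was tested in 8 of the 13 alternatives and TIMP4 in 12, the others leaving them under the FPKM minimum. The count over all genes, 74, became 1 with no FPKM minimum, 122 with a minimum of 1 FPKM in every library, 112 with quantile normalization and 42 with a replicate block. Leaving out 1 library gave 2 to 71 calls (3, 2 and 5 without Era replicate 1, 2 or 3, and 71, 60 and 42 without Era+VK replicate 1, 2 or 3). The cause was not tested. Correlations of deviations between same-numbered libraries were 0.0709, 0.103 and 0.021, so the numbers were not taken as pairs. Direction turned without Era+VK replicates 2 and 3 for ADAM10 (0.0478), ADAM19 (0.0135), ADAMTS5 (0.042), MMP1 (-0.1177), MMP15 (0.0788), MMP2 (0.0332) and TIMP1 (-0.1496), and with quantile normalization for MMP14 (0.011) and MMP16 (-0.0117). The median of the genes tested ran from -0.0371 to 0.005 when 1 library was left out. Fits that left out an Era+VK library tested 24 of the 25 genes, without ADAMTS14. Their medians were -0.0371, -0.0086 and -0.003 without Era+VK replicate 1, 2 or 3. With 1 library left out the difference ran from -0.038 to 0.0437 for ADAM10, -0.012 to 0.0297 for ADAM15, -0.0575 to 0.0103 for ADAM19, -0.0038 to 0.1212 for ADAMTS7, -0.3359 to 0.405 for MMP1, -0.042 to 0.0512 for MMP15, -0.0723 to 0.0635 for MMP16, -0.0806 to 0.0806 for TIMP1 and -0.095 to 0.0011 for TIMP3. In further fits with 1 library left out, direction held but the size moved by over 1.5 times, and examples follow. Without Era+VK replicate 2 they were ADAMTS12 (-0.0183), ADAMTS5 (-0.0568) and ADAM12 (-0.0519). Without Era+VK replicate 3 they were ADAMTS15 (0.0551), MMP2 (-0.0003) and MMP14 (-0.0057). Without Era+VK replicate 1 they were TIMP2 (0.0555) and ADAMTS5 (-0.3163). Without Era replicate 3 they were ADAMTS5 (-0.0815) and MMP24 (-0.0476). Over all libraries left out singly, the ranges were -0.1423 to -0.0183 for ADAMTS12, -0.1521 to -0.0519 for ADAM12, 0.0551 to 0.1778 for ADAMTS15 and 0.0555 to 0.1519 for TIMP2. They were -0.3163 to -0.0568 for ADAMTS5, -0.099 to -0.0476 for MMP24, -0.0772 to -0.0003 for MMP2 and -0.0467 to -0.0057 for MMP14.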
